A study of Mus musculus with 11 samples.

Results

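The genes described here are the machinery that attaches the ubiquitin-like protein ISG15 to other proteins and takes it off again, together with Ubd, a second ubiquitin-like modifier that interferons induce. They were taken by name as 6 genes of the 55487 in the expression files: Isg15 itself, Uba7 (its E1 activating enzyme), Ube2l6 (its E2 conjugating enzyme), Herc6 (an E3 ligase for it), Usp18 (the protease that removes it) and Ubd, which encodes FAT10. The rule that names them uses no measured value, but they were proposed with earlier results of these data known. Expression was measured by RNA-seq in 11 libraries of beta cells sorted by flow cytometry from islets of 12-week-old male C57BL/6JRj mice. PD-L1high beta cells (n = 4) and PD-L1low beta cells (n = 3, with no library for replicate 1) came from islets cultured for 20 h with IFNγ at 50 pg/mL and were separated by the PD-L1 protein on their surface. Control beta cells (n = 4) came from islets cultured without IFNγ. For beta cells of control islets, and of islets given a higher dose of IFNγ than here, the study describes a gate by EpCam and CD71 on the surface with little CD24, after cells with CD45, TER119 or CD31 had been left out. Whether the PD-L1 sort used the same gate is not given in the sources used here. The PD-L1high and PD-L1low cells differ by a gate set on a product of the response itself, and the level of the PD-L1 gene Cd274 is not a finding between them.

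ISG15 is made as a ubiquitin-like protein that is joined to lysines of target proteins by a cascade of an activating, a conjugating and a ligating enzyme, in the same order as ubiquitin. In mice Herc6 does the ligase work that HERC5 does in human cells. The whole cascade is known as a set of interferon-stimulated genes, and Usp18 both cleaves ISG15 from its targets and dampens signalling of the type I interferon receptor. FAT10 uses enzymes of its own and sends its targets to the proteasome. In beta cells, interferons are known for switching on antigen presentation and antiviral genes, of which these modifiers are part.

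On GRCm38, Isg15 lies on chromosome 4 (156199424 to 156200818, minus strand), Uba7 on chromosome 9 (107975505 to 107984060), Ube2l6 on chromosome 2 (84798828 to 84810335), Herc6 and Usp18 on chromosome 6 (57581000 to 57664632 and 121245906 to 121270917) and Ubd on chromosome 17 (37193892 to 37196095), all on the plus strand but Isg15. The 5 members found in the RefSeq promoter table (build GRCm38.p6) are shown by the 100 bases just before their transcription start, since these windows are where interferon-driven factors are known to bind in this class of genes. Capitals mark each match of the IRF element AANNGAAA and of the longer interferon-stimulated response element GAAANNGAAA, on either strand. The windows are chr4:156200819-156200918 for Isg15 (minus strand) and, on the plus strand, chr9:107975467-107975566 for Uba7, chr2:84798728-84798827 for Ube2l6, chr6:57580892-57580991 for Herc6 and chr17:37193792-37193891 for Ubd, each ending at the start that RefSeq gives, which for Uba7 and Herc6 is not the GENCODE start.
Isg15: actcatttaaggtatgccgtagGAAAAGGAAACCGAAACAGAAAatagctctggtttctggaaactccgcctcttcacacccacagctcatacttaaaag
Uba7: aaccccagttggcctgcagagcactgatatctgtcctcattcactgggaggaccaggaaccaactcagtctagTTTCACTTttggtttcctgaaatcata
Ube2l6: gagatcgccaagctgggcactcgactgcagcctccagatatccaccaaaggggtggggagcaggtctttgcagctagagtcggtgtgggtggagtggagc
Herc6: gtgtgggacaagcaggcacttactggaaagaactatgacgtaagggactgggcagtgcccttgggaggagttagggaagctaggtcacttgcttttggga
Ubd: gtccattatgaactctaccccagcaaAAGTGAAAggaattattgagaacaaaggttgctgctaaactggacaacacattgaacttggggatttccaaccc
The longer element was found in the window of Isg15 only, where 3 overlapping copies run from base -78 to base -57 before the start, and each copy contains a match of the shorter one. In all, 2.98% of the 32851 promoters in the table hold it within 250 bases. The shorter element alone stands at bases -27 to -20 of Uba7, on the minus strand, and at bases -74 to -67 of Ubd, and Isg15 holds one more match outside the bases shown (-128 to -121, minus strand). It is held by 21.3% of promoters. Neither was found within 250 bases of the starts of Ube2l6 and Herc6. The STAT element TTCNNNGAA, held by 7.02% of promoters, was found before none of these 5 genes. These matches describe letters only and say nothing of which factor bound there.

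Levels are given in CPM, which are the authors' RSEM expected counts rounded and scaled to library size with TMM factors, from 10422038 to 15810803 counts in a library (10422038 to 14742219 in PD-L1high, 11826369 to 14725111 in PD-L1low and 10965905 to 15810803 in control libraries). The beta cell markers summed to 62128 to 90407 CPM in PD-L1high, 71933 to 77316 CPM in PD-L1low and 60909 to 93672 CPM in control libraries. Of the 8 macrophage and dendritic markers, 4 (Adgre1, Itgax, Lyz2 and Flt3) were at 0 in every library and Ptprc and Csf1r stayed under 1 CPM. The sum of all 8 was 6.20 to 17.6 CPM in PD-L1high, 2.82 to 5.18 CPM in PD-L1low and 3.80 to 4.89 CPM in control libraries, with Cd74 called higher in PD-L1high against control cells (log2 3.04, adjusted p = 0.0172 in edgeR). That call was lost in 5 of 20 alternatives, namely without PD-L1high replicate 1, 2 or 3, without control replicate 1 (adjusted p = 0.0796) and without both libraries of replicate 1, with an adjusted p of up to 0.222. The part of these markers in the differences given here was not tested. Control replicate 1 stood apart from the other controls in several interferon-induced genes and had the highest mitochondrial share (13.3%, against 5.54% at the lowest). Ifit3, an antiviral gene induced mainly by type I interferon, had 44.8 CPM there and between 1.57 and 2.69 CPM in the other 3 controls. The fold changes of the members over control are given with and without that library. PD-L1high replicate 4 had the smallest total (10422038 counts), the fewest genes with a count (17422) and a mitochondrial share of 11.9%.

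Among the members, the E1, the E2, the E3 and the protease all rose in PD-L1high beta cells against control beta cells, while the modifier they serve stayed at the edge of detection. By edgeR's quasi-likelihood test with Benjamini-Hochberg adjustment over 16252 genes, 4 of the 5 members that passed the filter on low counts were called higher in PD-L1high than in control cells, where 0.941% of all genes were called higher. None of the 5 was called in PD-L1low against control cells, where 0.0615% of genes were called higher, and 3 were called higher in PD-L1high than in PD-L1low cells, where 0.64% were. Every library of the first group stood above every library of the second for 4 of 5 members in PD-L1high against control (2.68% of all genes), for 1 of 5 in PD-L1low against control (1.28%) and for 5 of 5 in PD-L1high against PD-L1low (4.41%). Of these 5, Isg15 stood apart by library size only, with 1 count each in PD-L1high replicate 4 and in PD-L1low replicates 2 and 3. The median log2 fold change of the 5 members was 2.13, 0.16 and 1.70 in the comparisons, in the order above, beside -0.02, 0.00 and 0.00 over all genes tested. The value of 2.13 is that of Isg15 itself, which was not called. Isg15 passed the filter at its margin and Ubd did not pass it. In bulk RNA fewer expressing cells and less RNA per cell cannot be told apart, which holds for every level given here.

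**Figure D1:**
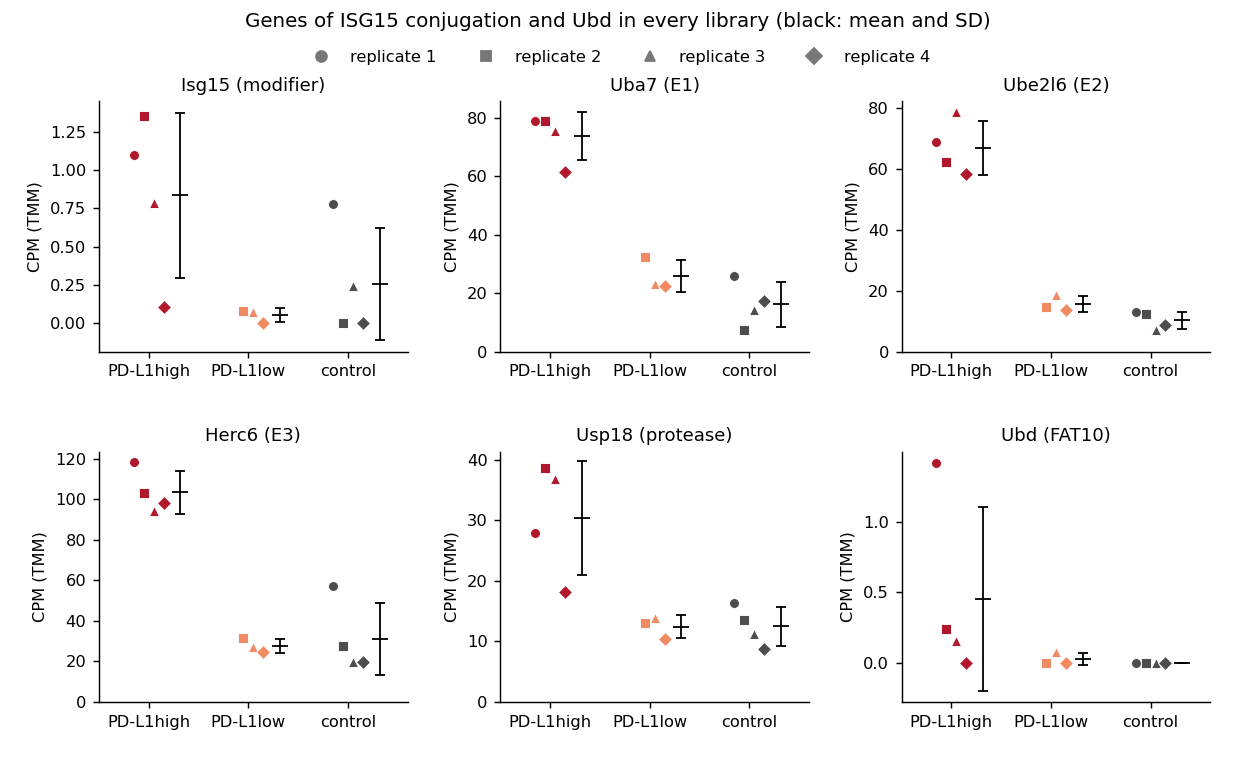
Expression in CPM (vertical axis, a scale for each gene) of the 6 genes in each library, by group, with a symbol for each replicate number and the mean and SD in black. For Uba7, Ube2l6, Herc6 and Usp18 every PD-L1high library lies above every PD-L1low and control library, while Isg15 and Ubd stay under 1.5 CPM in all.

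Isg15 was nearly silent. The 4 PD-L1high libraries held 17, 17, 10 and 1 counts of Isg15 (replicates 1 to 4), the 3 PD-L1low libraries 1, 1 and 0 counts (replicates 2 to 4), and the 4 control libraries 10, 0, 4 and 0 counts. The PD-L1high libraries of replicates 1 and 2 held more than any control. Control replicate 1 matched PD-L1high replicate 3 in counts and stood above PD-L1high replicate 4, so PD-L1high and control overlapped. PD-L1high replicate 4 held 1 count like the PD-L1low libraries of replicates 2 and 3. PD-L1high and PD-L1low thus stood apart in CPM by their library sizes only. In CPM this came to 0.834 ± 0.539 in PD-L1high, 0.0523 ± 0.0455 in PD-L1low and 0.254 ± 0.366 in control cells (SD, n = 4, 3 and 4), where 3 counts in a library are worth 0.181 to 0.312 CPM. The edgeR log2 fold change of PD-L1high over control was 2.13 (SE 1.14, adjusted p = 0.712) and that of PD-L1high over PD-L1low was 3.32 (SE 1.45, 95% interval 0.24 to 6.41, adjusted p = 0.552), so neither was called. PD-L1low over control was -1.19 (SE 1.56, 95% interval -4.53 to 2.14, adjusted p = 0.9998). Without control replicate 2 these values over control were 1.31 for PD-L1high and -2.15 for PD-L1low, and without control replicate 1 Isg15 did not pass the filter. Taken as summed counts over the group, PD-L1high held 45 against 14 in control, a ratio of 3.44 (95% interval 1.85 to 6.78), and leaving out replicate 1 of both groups gave 28 against 4, a ratio of 8.23 (2.88 to 32.3). Against PD-L1low the ratio was 17.8 (4.64 to 151), from 45 and 2 counts. These intervals cover counting error only and not the spread between libraries.

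Uba7, the E1 enzyme that activates ISG15, rose 4.77-fold in PD-L1high against control cells. It had 79.1, 78.9, 75.4 and 61.7 CPM in the PD-L1high libraries (replicates 1 to 4), against 25.9, 7.27, 14.4 and 17.2 CPM in the control libraries. The groups did not overlap, and the lowest PD-L1high library stood above the highest control, which was again replicate 1. The log2 fold change was 2.25 (SE 0.28, adjusted p = 0.00316 in edgeR), and 2.48 (adjusted p = 0.00175) without control replicate 1. The PD-L1low libraries had 32.4, 23.3 and 22.3 CPM (replicates 2 to 4), the lower values of which lay under the highest control. PD-L1low over control gave 0.88 (SE 0.32, adjusted p = 0.9998), and the unadjusted p was 0.0200. Between the IFNγ-treated fractions the groups did not overlap, yet the log2 fold change of 1.37 (SE 0.30, 95% interval 0.69 to 2.05) of PD-L1high over PD-L1low missed the threshold at an adjusted p of 0.126. That call depended on the processing, since it was made in 8 of 20 alternatives, among them DESeq2 (adjusted p = 8.34e-05), limma-voom (0.00314) and the fits without PD-L1high replicate 1 (0.0376), without control replicate 1 (0.0486) and without control replicate 2 (0.000192).

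Ube2l6, the E2 enzyme that carries ISG15 to the ligase, had the largest fold change of the called members. It had 68.9, 62.2, 78.5 and 58.3 CPM in PD-L1high libraries (replicates 1 to 4), against 12.9, 12.2, 6.94 and 8.87 CPM in control libraries. The rise was 6.60-fold (log2 2.72, SE 0.19, adjusted p = 3.23e-07 in edgeR), the 19th smallest p among the genes tested. Without control replicate 1 it was 2.83 on the log2 scale (adjusted p = 7.14e-07). The PD-L1low libraries had 14.6, 18.5 and 13.8 CPM, all above the highest control, and Ube2l6 was the member that separated these groups. Its log2 fold change of 0.69 (SE 0.21, unadjusted p = 0.00463) still missed the threshold after adjustment over all genes (adjusted p = 0.9998). Over PD-L1low, PD-L1high cells held 4.10-fold more (log2 2.04, SE 0.20, adjusted p = 5.45e-05). Within a replicate number, the ratio of the PD-L1high to the PD-L1low library was 4.27, 4.25 and 4.21 for replicates 2, 3 and 4, a narrower spread than the ratios to control, which ran from 5.09 to 11.3.

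Herc6, the ligase, rose in PD-L1high against control cells in every replicate number. The PD-L1high libraries had 118, 103, 94.3 and 98.1 CPM (replicates 1 to 4), against 57.2, 27.8, 19.6 and 19.9 CPM in the control libraries. No library overlapped between the groups, but control replicate 1 held 2.55 times the mean of the other 3 controls. The rise was 3.65-fold (log2 1.87, SE 0.17, adjusted p = 1.22e-05 in edgeR), and 2.15 on the log2 scale without control replicate 1 (adjusted p = 9.31e-08). The PD-L1low libraries, at 31.5, 27.3 and 24.6 CPM, lay within the range of the controls. PD-L1low over control was 0.16 (SE 0.20, 95% interval -0.26 to 0.58), and PD-L1high over PD-L1low was 1.70 (SE 0.19, adjusted p = 0.000211).

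Usp18, the ISG15 protease and a brake on type I interferon signalling, rose least of the 4 called genes. It had 27.9, 38.6, 36.9 and 18.2 CPM in PD-L1high libraries (replicates 1 to 4), against 16.4, 13.6, 11.2 and 8.78 CPM in control libraries. PD-L1high replicate 4 came close to control replicate 1 without crossing it. The rise was 2.41-fold (log2 1.27, SE 0.18, adjusted p = 0.00117 in edgeR), and 1.44 on the log2 scale without control replicate 1 (adjusted p = 0.00059). The PD-L1low libraries had 13.1, 13.9 and 10.4 CPM, and their mean of 12.5 CPM equalled that of the controls at this precision, with a log2 fold change of 0.08 (SE 0.21, 95% interval -0.36 to 0.53). PD-L1high over PD-L1low was 1.19 (SE 0.21, adjusted p = 0.00838). This last call was lost in 4 fits that left out 1 library, with adjusted p of 0.101 and 0.110 without PD-L1high replicate 2 or 3 and of 0.0877 and 0.0853 without PD-L1low replicate 2 or 3.

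**Figure D2:**
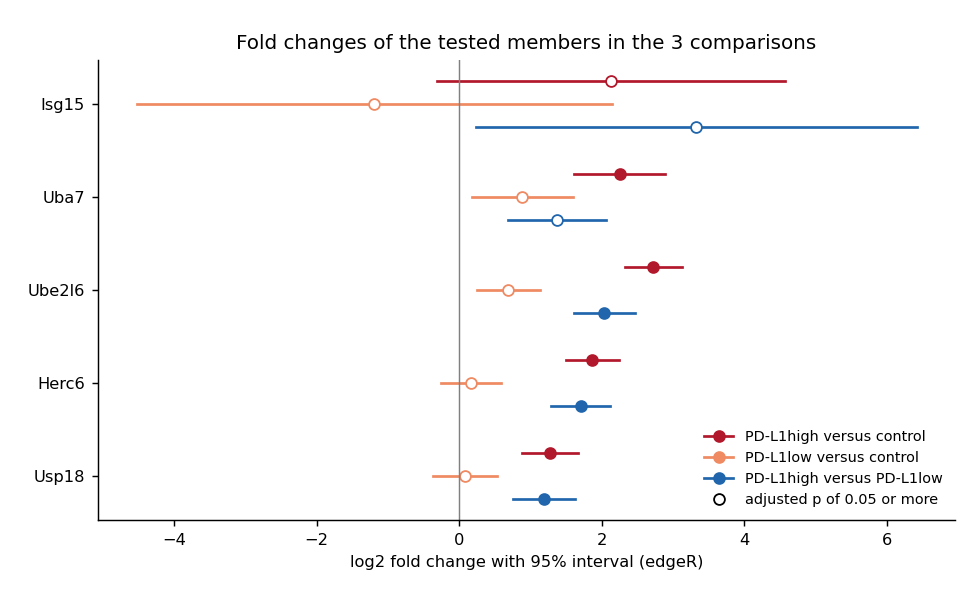
The log2 fold change (horizontal axis, with 95% intervals) of the 5 tested members in the 3 comparisons, filled where the adjusted p is under 0.05. The called rises over control run from 1.27 for Usp18 to 2.72 for Ube2l6, all PD-L1low points over control are open, and the intervals of Isg15 are several times wider than the others.

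Ubd, which encodes FAT10, was found almost only in PD-L1high replicate 1. The counts were 22, 3, 2 and 0 in the PD-L1high libraries (replicates 1 to 4), against 0, 1 and 0 in PD-L1low (replicates 2 to 4) and 0 in all 4 control libraries. As summed counts PD-L1high held 27 against 0 in control, and the 95% interval of the ratio began at 7.30 with no upper end. Without replicate 1 it held 5 against 0, and that interval began at 1.08. Set against a floor of 3 counts over the control group, these sums were 9.62-fold and 1.96-fold higher, which are not lower bounds. Against the 1 count of PD-L1low the ratio was 21.3 (95% interval 3.51 to 873), and without replicate 1 it was 5.70 (0.638 to 270). Ubd entered only the fit with no filter, where the log2 fold change over control was 5.20 (SE 2.42, adjusted p = 0.698) and is no bound, since every control is at 0. Among genes chosen after their values were seen, the duct-associated Spp1 was also highest in PD-L1high replicate 1 (466 CPM, against 104 to 149 CPM in the other PD-L1high libraries). So was Cd74, the invariant chain of MHC class II (12.8 CPM, against 3.498 to 5.71 CPM). Of the other duct markers, Krt7 had 265 to 319 CPM in PD-L1high libraries, Krt19 at most 1.29 CPM and Sox9 under 1 CPM. The part of other cells in the Ubd counts of PD-L1high replicate 1 was not tested.

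The ratios between libraries of the same replicate number show how the members varied from one set of libraries to the next. In replicate 1, where control cells were highest, PD-L1high held 3.05 times the control level of Uba7, 5.35 times that of Ube2l6, 2.07 times that of Herc6 and 1.71 times that of Usp18. In replicates 2 to 4 the ratios ran from 3.59 to 10.8 for Uba7, from 5.09 to 11.3 for Ube2l6, from 3.71 to 4.94 for Herc6 and from 2.07 to 3.30 for Usp18. All 16 ratios of these genes to control were above 1, which any matching of libraries would give, since the groups did not overlap. The lowest ratio of each gene fell in replicate 1 except that of Ube2l6, which fell in replicate 2.

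**Figure D3:**
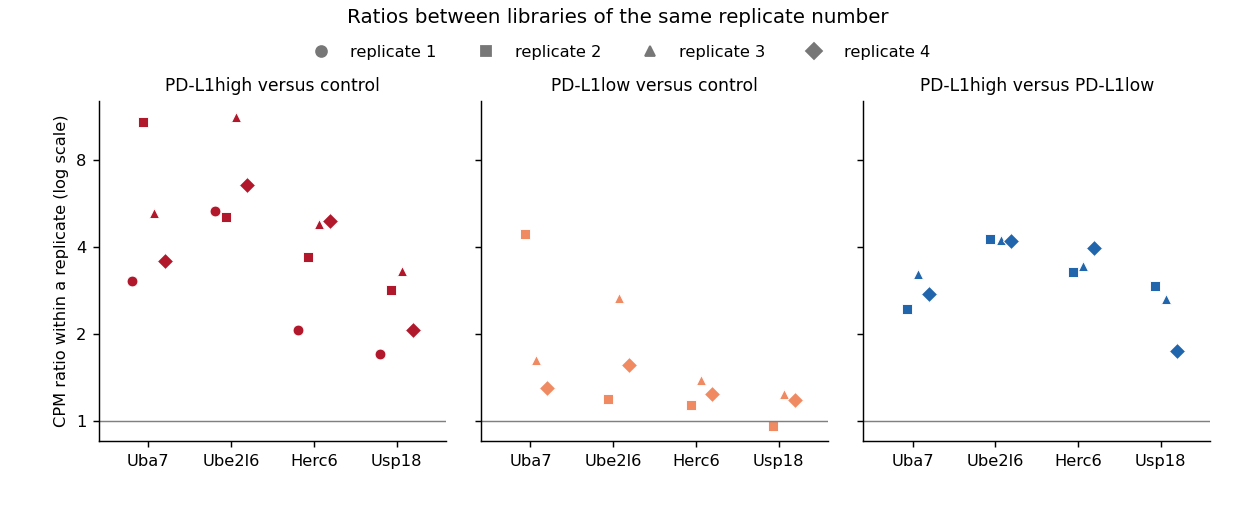
Ratio of CPM (vertical axis, log scale) between libraries of the same replicate number for Uba7, Ube2l6, Herc6 and Usp18 in the 3 comparisons, with 1 as the line of no difference. The ratios of PD-L1high to control run from 1.71 to 11.3 and those of PD-L1high to PD-L1low from 1.75 to 4.27, while those of PD-L1low to control lie between 0.964 and 4.45.

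In PD-L1low against control cells none of the 5 tested members passed the threshold in edgeR, DESeq2 or limma-voom. At an unadjusted p under 0.05 each tool had 2 of the 5, and in edgeR, where 2.10% of all genes had such a p, these were Uba7 and Ube2l6. Without control replicate 1 the log2 fold changes of PD-L1low over control were 1.01 for Uba7, 0.74 for Ube2l6, 0.31 for Herc6 and 0.17 for Usp18, again with none called. Of the difference between PD-L1high and control means in CPM, PD-L1low cells had 17.0% for Uba7, 9.52% for Ube2l6, -4.56% for Herc6 and -0.0702% for Usp18. The sign of the last values turned without control replicate 1, when the shares were 21.5% for Uba7, 10.9% for Ube2l6, 6.65% for Herc6 and 6.69% for Usp18. Markers of other islet cell types moved with the fractions too. The PP cell genes Ppy and Pyy, both called lower in PD-L1low against control cells, summed to 26.8 to 33.5 CPM there, against 150 to 382 CPM in control libraries, and to 233 to 562 CPM in PD-L1high libraries. The alpha cell markers summed to 561 to 1483 CPM in PD-L1high, 349 to 353 CPM in PD-L1low and 323 to 1387 CPM in control libraries, and the delta cell markers to 11.4 to 39.4 CPM in PD-L1high, 3.51 to 9.11 CPM in PD-L1low and 6.70 to 33.2 CPM in control libraries. In PD-L1high against PD-L1low cells Ppy (log2 4.16, adjusted p = 1.6e-10 in edgeR), Pyy (2.96, 4.04e-07), the glucagon gene Gcg (2.37, 0.0162) and the somatostatin gene Sst (2.42, 0.00135) were called higher. Ppy was also called higher in PD-L1high against control cells (0.67, adjusted p = 0.00182), but not with no replicate block (0.913). The part of these differences in the levels of the members was not tested.

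Control replicate 1 weighed unequally on the members. Compared with the mean of the other 3 controls, it held 9.63 times as much Isg15 (10 counts, against 0, 4 and 0), 2.55 times as much Herc6, 2.00 times as much Uba7, 1.46 times as much Usp18 and 1.38 times as much Ube2l6. Among genes chosen after their values were seen, Ifit3 stood at 21.6 times, Rsad2 at 7.61 times and Ifit1 at 5.37 times. From the gene lists described below, Mx1 stood at 5.38 times, Stat2 at 2.92 times, Irf9 at 1.51 times and Irf1 at 1.44 times. Irf7, an amplifier of type I interferon responses on the same lists, was at 2.65 times. Cd274 was at 1.33 times. Control replicate 1 was also the highest control for 38.1% of the 16252 tested genes, so a place at the top of the controls was common in itself. Of the 21 interferon genes looked at, 19 had no count in any library, and the others had 3 counts in PD-L1high, 0 in PD-L1low and 7 in control libraries in all. What raised these genes in that library was not tested.

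**Figure D4:**
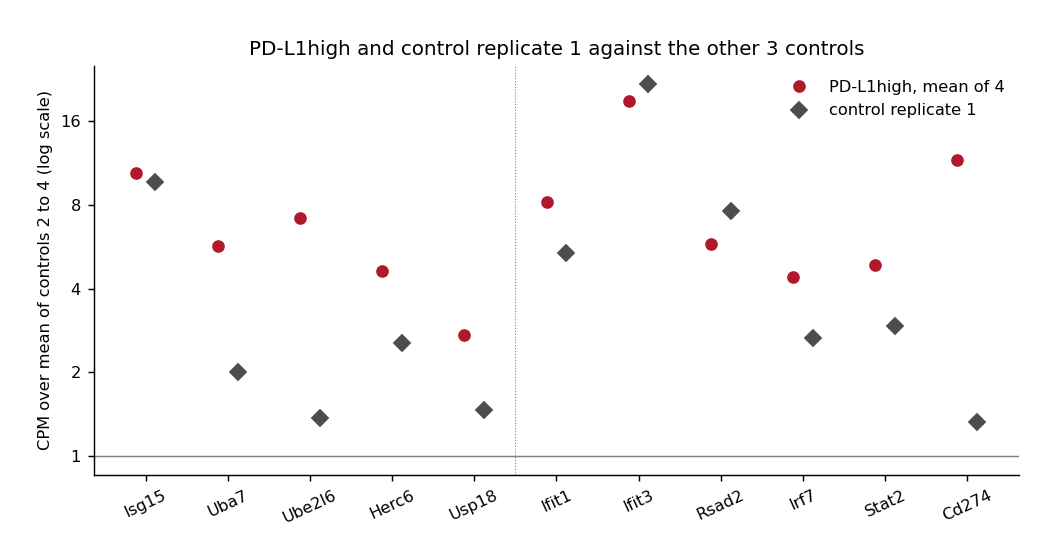
CPM of PD-L1high cells (mean of 4 libraries) and of control replicate 1, each divided by the mean of controls 2 to 4 (vertical axis, log scale), for 5 members left of the dotted line and 6 other interferon-induced genes right of it. Control replicate 1 comes near or above the PD-L1high mean for Isg15, Ifit3 and Rsad2 and stays near 1.4 times for Ube2l6, Usp18 and Cd274.

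Levels between genes were compared per length, as the authors' TPM. In PD-L1high cells the order was Ube2l6 (53.2 ± 10.99 TPM), Uba7 (43.9 ± 5.97), Herc6 (32.2 ± 9.71), Usp18 (22.0 ± 6.48), Isg15 (1.87 ± 1.29) and Ubd (0.720 ± 1.06, SD, n = 4), and the step from Usp18 to Isg15 was the only one between neighbours whose ranges did not overlap. In PD-L1low cells Uba7 (16.1 ± 9.49 TPM) and Ube2l6 (13.4 ± 4.804) came first, then Usp18 (9.05 ± 2.64) and Herc6 (8.08 ± 1.59), with Isg15 at 0.113 ± 0.0987 and Ubd at 0.0367 ± 0.0635 TPM (SD, n = 3). In control cells the order was Uba7 (11.1 ± 4.24 TPM), Herc6 (9.35 ± 4.05), Usp18 (8.46 ± 2.28), Ube2l6 (7.09 ± 1.40), Isg15 (0.428 ± 0.572) and Ubd at 0 in all 4 libraries. Again only the step down to Isg15 was clear of overlap in both groups. Within single PD-L1high libraries the TPM of the E1 was 12.7 to 226 times that of Isg15 and the TPM of the E2 was 16.3 to 193 times it, the upper ends being from replicate 4 with 1 count of Isg15. The place of Uba7 in this order is less sure than its CPM, because the length RSEM assigned to it, which follows the mix of isoforms, ran from 1085 to 2501 bases over the libraries. It was 1265, 1565 and 2501 bases in PD-L1low replicates 2 to 4, whose TPM of 25.9, 15.4 and 6.98 spread far more than their CPM. The assigned length also moved for Herc6 (2448 to 4122 bases), Usp18 (1072 to 1520) and Ube2l6 (1021 to 1326), whose places carry the same limit.

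The rest of the ubiquitin-like machinery gives the setting in which these rises stand. In PD-L1high against control cells, none of 9 other E1 genes or subunits, 34 other E2 and E2-like genes, 4 other Herc family ligases and 17 other modifiers (ubiquitin, SUMO, NEDD8 and their like) was called in either direction by edgeR, DESeq2 or limma-voom. At an unadjusted p under 0.05 edgeR had 0, 1, 0 and 0 of them, DESeq2 0, 1, 1 and 0, and limma-voom 0, 1, 1 and 0. The log2 fold changes ran from -0.27 to 0.19 for the other E1 genes, from -0.54 to 0.47 for the other E2 genes, from -0.25 to 0.18 for the Herc genes and from -0.60 to 0.20 for the modifiers. The medians were 0.12 for the other E1 genes, 0.09 for the other E2 genes, -0.06 for the Herc genes and 0.00 for the modifiers. Of 10 other enzymes tied to ISG15 (ligases, conjugating enzymes and proteases with some activity on it), 0 were called by any of the 3 tools, and 2 had an unadjusted p under 0.05 in each. Their log2 fold changes ran from -1.28 to 0.47. Ube2e1, one of them in edgeR, is also the gene of the other E2 list with such a p. The smallest p values in edgeR belonged to the conjugating enzyme Ube2e1 (67.1 ± 5.69 CPM in PD-L1high against 49.1 ± 11.4 CPM in control, log2 0.47, adjusted p = 0.228, called with no filter and, at 0.0259, without control replicate 2) and the ligase Trim25 (104 ± 18.4 against 82.5 ± 4.25 CPM, log2 0.33, adjusted p = 0.395).

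Of 4 genes that handle FAT10, the UBA6 and UBE2Z enzymes and the binding proteins NUB1 and p62 (Sqstm1), edgeR called Nub1 alone. It had 87.0 ± 3.94 CPM in PD-L1high against 58.3 ± 6.94 CPM in control cells (log2 0.58, SE 0.11, adjusted p = 0.0110). That call was lost in 7 of 20 alternatives (adjusted p up to 0.0780), among them the fits without PD-L1high replicate 1, 2 or 3 and without control replicate 1 (0.0709) or 3. Uba6 (log2 0.19), Ube2z (0.09) and Sqstm1 (0.28) were not called.

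**Figure D5:**
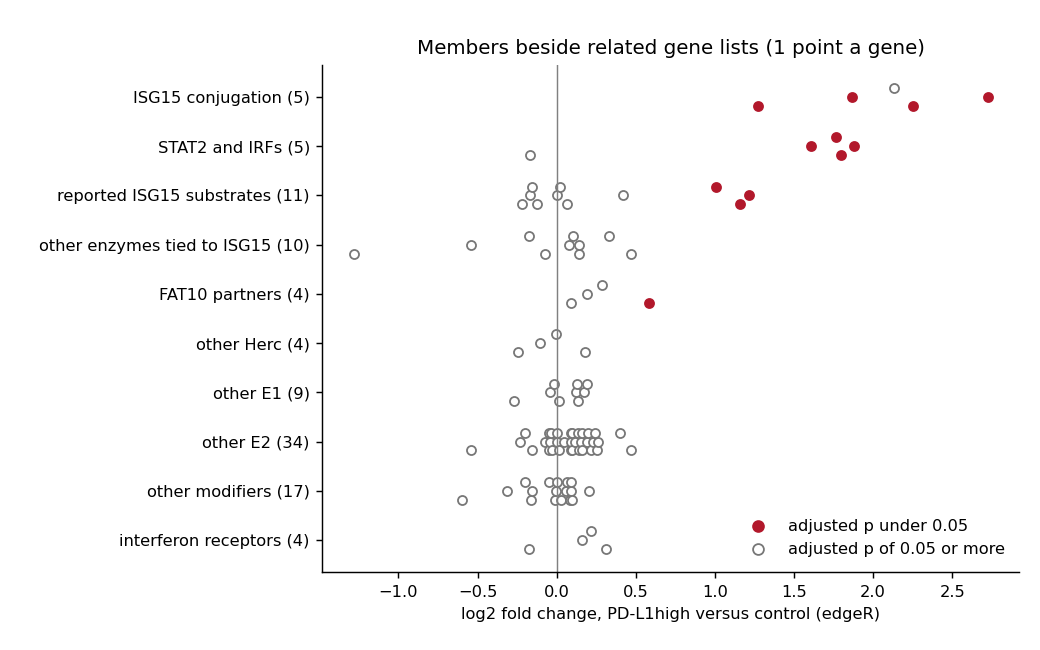
The log2 fold change of PD-L1high over control (horizontal axis) for each tested gene of the ISG15 cascade and of 9 related lists, 1 point a gene, filled where the adjusted p is under 0.05. The filled points of the cascade lie at 1.27 to 2.72, on both sides of those of Stat2 and the IRF genes, and the lists of other E1, E2, Herc, modifier and receptor genes hold none.

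The remaining lists hold genes tied to the cascade from above and below. Of 5 transcription factors of interferon responses, 4 were called higher in PD-L1high against control cells and again against PD-L1low cells. The count against PD-L1low cells was 2 in 8 of 20 alternatives, namely with no replicate block and without any 1 of PD-L1high replicates 2 to 4, PD-L1low replicates 2 to 4 or control replicate 4. Stat2 (adjusted p up to 0.393) and Irf9 (up to 0.307) were the genes lost. In PD-L1low against control cells 0 were called by edgeR and limma-voom and 2 by DESeq2, and each tool had 3 at an unadjusted p under 0.05. There the count rose above 0 in 6 of 20 alternatives, to at most 3. Among these, edgeR called 3 without control replicate 1 and 2 without PD-L1high replicate 1. Stat2, part of the complex that binds the response element shown above, had 107 ± 15.7 CPM in PD-L1high, 43.0 ± 5.66 in PD-L1low and 32.7 ± 21.3 in control cells (log2 1.88 over control, adjusted p = 0.000265). Over control Stat2 was at 2.21 without control replicate 1, and its call was lost with no replicate block (adjusted p = 0.0552). Irf9, its DNA-binding partner, had 65.2 ± 12.0 CPM in PD-L1high, 35.6 ± 8.06 in PD-L1low and 21.5 ± 5.01 in control cells (log2 1.61, adjusted p = 2.69e-05). Irf1, an early IFNγ-induced factor, had 121 ± 19.2 CPM in PD-L1high, 51.0 ± 5.34 in PD-L1low and 34.9 ± 7.02 in control cells (log2 1.80, adjusted p = 7.15e-07), and Irf7 had 39.9 ± 4.84 CPM in PD-L1high, 8.58 ± 3.49 in PD-L1low and 12.9 ± 7.54 in control cells (log2 1.76, adjusted p = 0.000748). Without control replicate 1 the log2 fold changes were 1.82 for Irf9, 1.93 for Irf1 and 2.10 for Irf7. Of 11 proteins reported to carry ISG15, the mRNA of 3 was called higher in PD-L1high against control cells and 8 were not called. The 3 were the RNA sensors Ddx58 (1.22) and Ifih1 (1.16) and the kinase PKR (Eif2ak2, 1.01), all interferon-stimulated genes themselves. The list also gave 3 of 11 in PD-L1high against PD-L1low cells, but 0 without PD-L1high replicate 2 or 3 and 1 without PD-L1high replicate 4 or any 1 of the PD-L1low libraries. In PD-L1low against control cells it gave 0 by edgeR, DESeq2 and limma-voom, with 3 at an unadjusted p under 0.05 in each. None of the 4 interferon receptor chains was called in any comparison by edgeR, DESeq2 or limma-voom, and none had an unadjusted p under 0.05.

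For each tested member, the 3 other genes with the closest profile were found by the root mean square difference of log2 CPM over the 11 libraries, each profile centred on its mean. Nearest to Ube2l6 were the immunoproteasome subunit gene Psmb8 (0.237), B2m, the light chain of MHC class I (0.255), and Serping1, the C1 inhibitor (0.276). Uba7 had Stat2 (0.352), Parp14 (0.375) and the MHC class I gene H2-Q4 (0.383), and Herc6 had Tmem140 (0.296), Parp14 (0.297) and Irf7 (0.329). Usp18 was closest to Pla2g16 (0.164), Trim12c (0.265) and Trafd1 (0.270). Isg15, with its few counts, came no nearer than 0.579 to any gene, its closest being Dhx58, Oas2 and Nfkbia. In Ube2l6 and its neighbours, PD-L1high over control ran from 2.42 to 2.92 on the log2 scale, and in Usp18 and its neighbours from 1.06 to 1.56. Such closeness follows from the choice of neighbours by their profile over the same libraries.

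How far reads could be shared bears on these levels unequally. Of all 50-base windows in the annotated transcripts, those also present in transcripts of another gene made up 3.96% for Isg15, 2.52% for Uba7, 8.32% for Ube2l6, 12.5% for Herc6, 2.81% for Usp18 and 0% for Ubd. Uba7 overlaps Gm20661 on the same strand, which had at most 6 counts in a library. Herc6 overlaps Gm45193 (at most 19 counts, in control replicate 1) on the same strand and Gm19244 on the other, and Usp18 overlaps Gm44148 (at most 4 counts) on the other strand. Against the 222 to 1836 counts of Herc6 and the 97 to 1228 of Uba7 in a library, the counts of the overlapping genes were few. The shared windows of Herc6, however, were in transcripts of 417 other genes, those of Ube2l6 of 9 and those of Uba7 of 1. The part of such reads in the counts was not tested.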

How the data were processed

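RNA-seq was analysed for 11 libraries of sorted mouse beta cells, grouped by the sample labels. The methods name an Ovation Solo kit with random primers, strand marking and depletion of ribosomal RNA, read as pairs of 75 bases. Reads were aligned by the authors with STAR 2.5.2b to GRCm38.p6. The RSEM version, and whether molecular identifiers were used, are not given in the sources used here. The deposited expected counts per gene are RSEM estimates, not normalized, and were rounded to whole numbers, which moved no total by more than 0.000265%. The deposited TPM values are the authors' own, scaled per length and library. In the study's own tests DESeq2 1.32.0 had a batch term.

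filterByExpr (count minimum 10) left 16252 genes. The edgeR 4.0.16 quasi-likelihood fit was robust, with TMM, and had group and replicate number as terms over all 11 libraries, the number standing for the batch, which the sources do not define. P values were adjusted by Benjamini-Hochberg within a comparison, with a threshold of 0.05. The methods call each n an independent biological sample but nothing ties libraries to animals, so p-values measure the spread between these samples. Each pair of libraries in a group differed beyond counting noise (chi-square per degree of freedom 10.0 to 108). The scripts were tested on simulated data. Alternatives were DESeq2 1.42.0, limma-voom (limma 3.58.1), other normalizations and filters, no replicate block, the compared groups alone, and each library left out. Leaving out both libraries of replicate 1, and shares of the rise without control replicate 1, were added after the data had been seen. Symbols were matched for 55141 of 55487 genes, positions and transcripts came from GENCODE M21, and promoters from RefSeq (5 of 6 members). Software was R 4.3.3, with Python 3.11.15 for tables and figures.

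The members, lists and tests were chosen with earlier results of these data known. All members are given in every library, other lists by at most 4 genes with the smallest p in PD-L1high versus control, and for each member the 3 genes most like it. Floors (3 counts) and count intervals cover counting error only. One gene of the lists is not reported here.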

Additional observations from a re-analysis of the deposited data

Results flagged for a closer look

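The level of Ubd in PD-L1high replicate 1 was far from those of the other 3 PD-L1high libraries. It was 1.42 CPM there, from 22 counts, against 0.238, 0.157 and 0 CPM in replicates 2 to 4. The gap to the nearest library was 0.832 of the whole range, just above the limit that Dixon's test sets for 4 values. In all, 17 such sets of 4 values were tested and 1 passed, where chance passes about 1 in 20. Spp1 and Cd74, chosen after their values were seen, were also highest in this library. The duct marker Krt7 had 265 to 319 CPM over the PD-L1high libraries. How often this library was the highest over all genes was not counted.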

How the results depend on the processing

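Uba7, Ube2l6, Herc6 and Usp18 were called higher in PD-L1high against control cells in all 20 alternatives. Their log2 fold changes there ran from 1.94 to 2.48 for Uba7, from 2.49 to 2.89 for Ube2l6, from 1.73 to 2.15 for Herc6 and from 1.15 to 1.44 for Usp18. Against PD-L1low cells 2 to 4 members were called, against 3 in the report, with Uba7 gained or Usp18 lost. In PD-L1low against control cells none was called except 1, Uba7, with no filter (log2 0.89, adjusted p = 0.000146), and the signs of the near-zero values were not stable. Herc6 was at -0.16 with no replicate block, and Usp18 was at -0.0031 with no replicate block and ran from -0.061 to 0.21 when 1 library was left out. Isg15 was not called in the 14 of 20 alternatives that gave it a value and did not pass the filter in the others.

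The number of genes called in PD-L1high against control cells was 161 in the report, 249 with DESeq2, 245 with limma-voom and 328 with no filter, and 110 to 269 with 1 library left out, the highest being without control replicate 2. In PD-L1low against control cells it was 13, and 47 with DESeq2, 20 with scaling by library size only, 27 with limma-voom, 91 with no filter and 33 with these groups alone. It was 8 to 43 with 1 library left out (8 without PD-L1low replicate 2, 41 without PD-L1high replicate 1, 43 without control replicate 1), and 43 without both libraries of replicate 1. In PD-L1high against PD-L1low cells it was 119, and 202 with DESeq2, 180 with limma-voom, 354 with no filter and 64 to 143 with 1 library left out. The cause of these differences was not tested.

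With no replicate block 127, 12 and 88 genes were called in these comparisons, and the calls of the members were those of the report. Deviations from the group mean correlated at -0.329 to 0.408 between libraries of the same number (median 0.124, 10 pairs) and at -0.352 to 0.334 between libraries of different numbers (median -0.0357, 30 pairs). The median was higher for the same number but the ranges overlapped, so the numbers are not shown to pair the libraries. Depth limits Isg15 and Ubd, which had at most 17 and 22 counts in a library.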
